A study of Arabidopsis thaliana with 6 samples.

Results

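*STZ*, *AR781*, AT4G29780, AT1G05575 and AT2G25735 are 5 fast stress-response genes of *Arabidopsis*, each read here by 1 probe set that pairs with no other gene, out of 13350 genes named by such probe sets and 22746 probe sets in all. They were selected on their signal on these same arrays, as fast stress genes seen to be higher with the chitin 4mer than in mock. Their difference between the groups is therefore given as a description, with no test, and nothing is concluded from its direction. The 4mer is a purified chitin tetramer, and the 4mer seedlings were kept with it for 30 min at 100 µg/mL. The mock seedlings received an equal amount of water. Both groups were wild-type Col-0 plants, grown in liquid Murashige and Skoog medium for 14 days and harvested whole, with 3 independent biological replicates each. The RNA was read on 6 Affymetrix ATH1 arrays, and each level below is the deposited signal divided by the median of its array. Levels of different probe sets are not compared with one another, because each probe set has its own brightness.

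Plants answer wounding, cold, salt, strong light and molecules of microbes within minutes by transcribing a shared set of genes. Calcium and mitogen-activated protein kinase signals act upstream, and many of the early products are transcription factors, regulators of protein turnover and small proteins without a known role. *STZ*, for salt tolerance zinc finger, is also called *ZAT10*. It encodes a zinc finger protein with a repressor motif of the EAR type, which recruits co-repressors to silence target genes. Long chitin fragments are known to raise *STZ* quickly, and the study asked how seedlings respond to the short tetramer. The products of *AR781*, AT4G29780, AT1G05575 and AT2G25735 are not annotated in the gene tables used, so no role is given for them.

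The arrays were alike with 1 exception. Over the 11431 probe sets with a mean level of at least 1, the log2 levels of mock replicate 1 correlated at 0.947 to 0.957 with those of the other arrays, where all other pairs reached 0.984 to 0.994. The 5 genes and the median of each stress list are therefore given with and without this array. The labelled tissue was checked with the few markers that carry a name here. *RCA*, which encodes the activase of Rubisco in green tissue, was between 48.7 and 55.0 on the 4mer arrays, against 47.8 to 67.4 on the mock arrays. *PYK10*, a beta-glucosidase gene of roots, was between 49.6 and 58.7 on the 4mer arrays, against 47.8 to 76.2 on the mock arrays. The highest value of both genes came from mock replicate 1. Of 8 shoot markers 1 was named, of 8 root markers 3, and of the 5 flower and 5 seed markers none, so absent organs could not be checked.

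All 5 genes were higher on each 4mer array than on any mock array, by a mean of 1.66-fold to 1.95-fold. At a limit of 1.5-fold, below the fold change of each of the 5, 2.04% of all probe sets were higher with the 4mer without overlap of the groups. Among the 11431 probe sets with a mean level of at least 1 it was 1.02%. Of these 11431, 54 had at least the fold change of *STZ*, the smallest of the 5, without overlap, the 5 genes included. These values are given as background only, since this contrast chose the genes. Over the 45 pairs of a 4mer array with a mock array, the ratio of the levels lay between 1.43 and 2.37. With mock replicate 1 left out, the fold changes were 1.67 to 2.19, and 4.22% of all probe sets were higher by at least 1.5-fold without overlap.

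**Figure D1:**
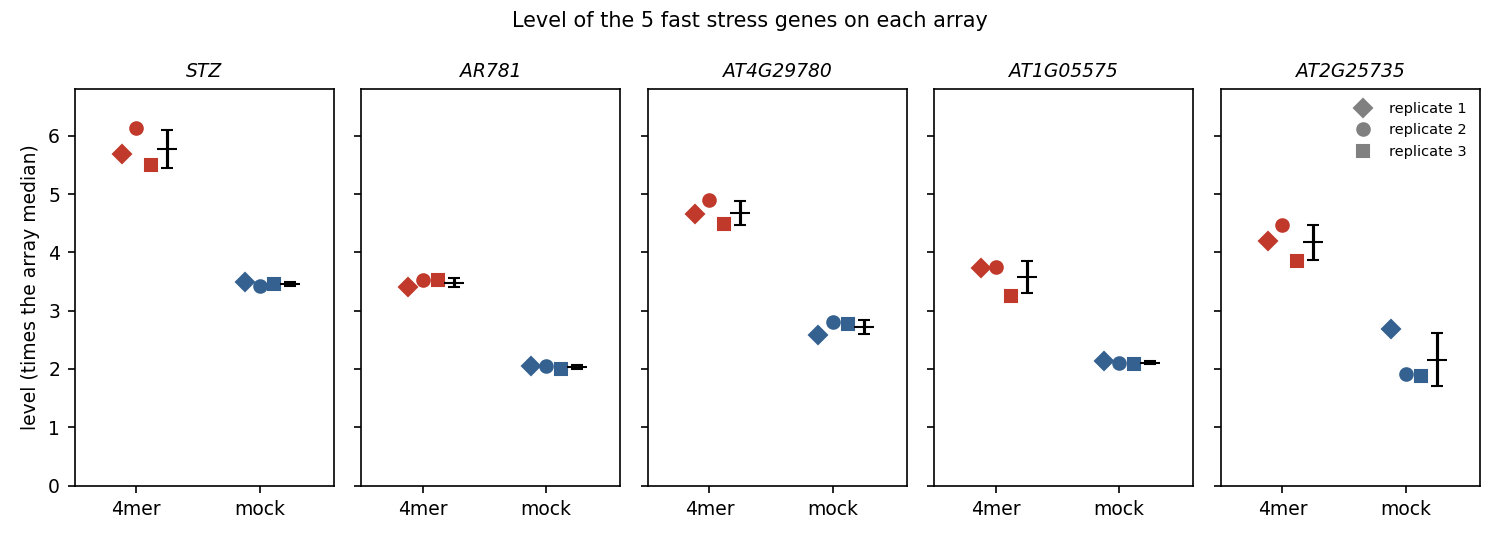
Level of each gene as a multiple of the array median, with 1 point per array, the 4mer arrays left and the mock arrays right in each panel, the shape of the point giving the replicate and the bar the mean ± SD of 3 arrays. The mock arrays of *STZ* lie within 3.43 to 3.50, while those of AT2G25735 are split, with replicate 1 at 2.69 and the other two near 1.9.

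*STZ* (AT1G27730), the zinc finger repressor, was at 5.68, 6.13 and 5.49 times the array median in 4mer replicates 1, 2 and 3. In mock replicates 1, 2 and 3 it was at 3.50, 3.43 and 3.46. The mock arrays spanned a narrow range, with a coefficient of variation of 1.14%, against 5.71% in the 4mer arrays, and the lowest 4mer array was 1.57 times the highest mock array. The log2 fold change was 0.74 with all arrays and the same 0.74 without mock replicate 1. Of the 5 genes, *STZ* had the smallest fold change, at 1.66.

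*AR781* (AT2G26530) had the most even levels of the 5 in the 4mer arrays, though not in mock. In the 4mer arrays it was at 3.40, 3.53 and 3.53 times the array median, with a mean of 3.48 ± 0.076 (SD, n = 3). In the mock arrays it was at 2.06, 2.05 and 2.0, with a mean of 2.04 ± 0.0316 (n = 3). The groups stood far apart relative to their spread, and the ratio of any 4mer array to any mock array lay between 1.65 and 1.76. The log2 fold change was 0.77, and 0.78 without mock replicate 1.

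AT4G29780 reached 4.66, 4.90 and 4.49 times the array median in the 4mer arrays, a mean of 4.68 ± 0.204 (SD, n = 3). The mock arrays gave 2.58, 2.80 and 2.78, a mean of 2.72 ± 0.119 (n = 3). Here mock replicate 1 was the lowest mock array, so leaving it out made the difference smaller. The log2 fold change was 0.78 with all arrays and 0.75 without it, the only decrease among the 5 genes.

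AT1G05575 was at 3.74, 3.75 and 3.26 times the array median in the 4mer arrays, with a mean of 3.58 ± 0.279 (SD, n = 3). The mock arrays gave 2.14, 2.1 and 2.08, with a mean of 2.11 ± 0.0311 (n = 3). The spread lay almost wholly in the 4mer group, where replicate 3 was lower than the other two. The log2 fold change was 0.76, and without 4mer replicate 3 it was 0.83.

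Of the 5 genes, AT2G25735 had the largest fold change and the largest gap between mock replicate 1 and the other mock arrays. The 4mer arrays gave 4.19, 4.47 and 3.86 times the array median, with a mean of 4.17 ± 0.307 (SD, n = 3). The mock arrays gave 2.69, 1.91 and 1.88, with a mean of 2.16 ± 0.456 (n = 3). The coefficient of variation was 7.36% in the 4mer arrays and 21.1% in the mock arrays, and fell to 1.2% in mock when replicate 1 was left out. The log2 fold change was 0.97 over all arrays, which is 1.95-fold, and 1.13 without mock replicate 1, which is 2.19-fold. Even against mock replicate 1, the lowest 4mer array was 1.43 times as high.

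Mock replicate 1 touched the genes unequally. On the log2 scale it lay 0.03 above the mean of the other two mock arrays in *STZ*, 0.03 above in *AR781* and 0.04 above in AT1G05575. In AT4G29780 the difference was -0.11, and in AT2G25735 it was 0.50. Among the probe sets with a mean level of at least 1, the median size of this difference was 0.25. A difference at least as large as that of *STZ* was found in 93.9% of them, and one at least as large as that of AT2G25735 in 17.8%. In 4 of the 5 genes the deviating array was thus close to the other mock arrays. The part of this array in the result for AT2G25735 is given by the values without it.

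**Figure D2:**
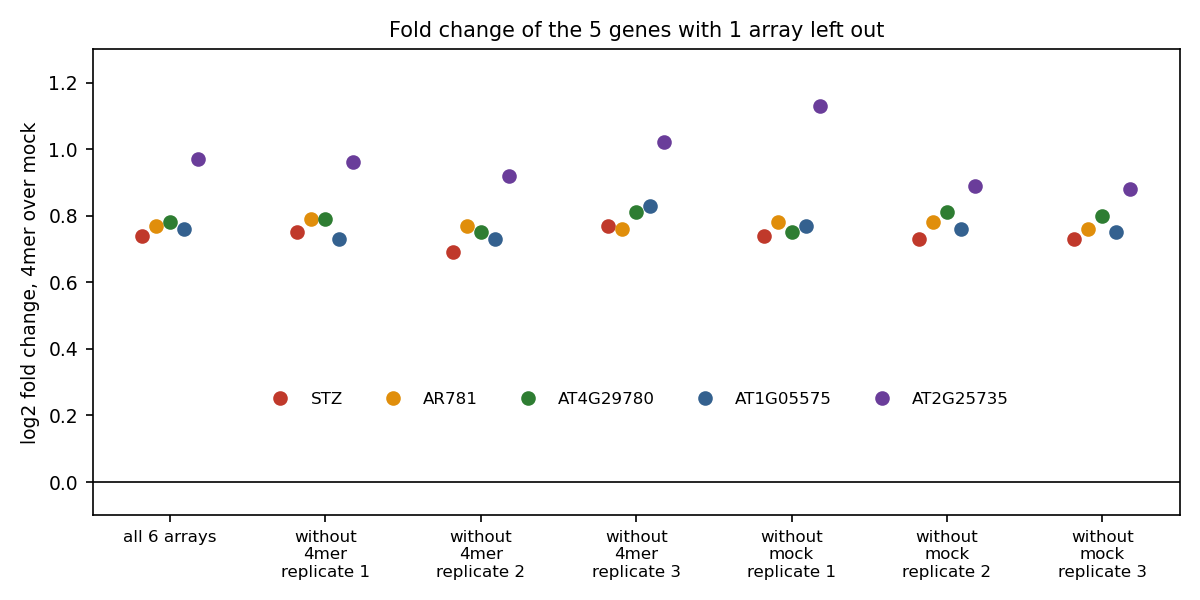
Log2 fold change of 4mer over mock for each gene, with all 6 arrays at the left and then with each array left out in turn. *AR781* stays within 0.76 to 0.79, and AT2G25735 moves most, between 0.88 without mock replicate 3 and 1.13 without mock replicate 1.

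When each array was left out in turn, the log2 fold change stayed within 0.69 to 0.77 for *STZ*, 0.76 to 0.79 for *AR781*, 0.75 to 0.81 for AT4G29780 and 0.73 to 0.83 for AT1G05575. For AT2G25735 it stayed within 0.88 to 1.13. Of the 4mer arrays, replicate 2 had the highest level of *STZ*, AT4G29780, AT1G05575 and AT2G25735, and replicate 3 the lowest of the same genes. *AR781* did not share this order, its lowest 4mer level being that of replicate 1. The deviations from the group means differed from gene to gene. Over the 10 pairs of genes and 6 arrays, Pearson's r of these deviations ranged from -0.43, between AT4G29780 and AT2G25735, to 0.75, between *STZ* and AT1G05575. For the log2 levels themselves, which hold the group difference that chose the genes, r was between 0.91 and 0.99. The arrays share their scaling, so these values describe the pattern and are no test.

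Of 17 listed genes of the ZAT family of zinc finger proteins other than *STZ*, 6 carry a name here. Their log2 fold change was positive in 5 and negative in 1, with a median of 0.05, against -0.01 over all probe sets. Without mock replicate 1 the median was 0.09. At an unadjusted p under 0.05, 0 were higher and 1 lower, against 4.54% and 6.86% of all probe sets. None passed limma's test with all arrays at an adjusted p under 0.05, where 0.0659% of all probe sets were higher and 0.0352% lower. The listed stress genes were set against the same background throughout. *ZAT5* was at 2.63, 2.82 and 2.43 times the array median in the 4mer arrays and at 2.56, 2.58 and 2.44 in the mock arrays, so that the groups overlapped. It is named because it was the only one of the 6 with a mean level above the array median, which was noticed after the values were seen. *ZAT4* was at 0.206, 0.179 and 0.159 in the 4mer arrays and at 0.309, 0.240 and 0.316 in the mock arrays. Its 4mer levels lay below all mock levels, as in 12.5% of all probe sets, and limma gave a log2 fold change of -0.67 ± 0.27 (SE, adjusted p = 0.415). With levels under 0.25 set to 0.25 it was -0.21. For *ZAT17* limma gave 0.23 (adjusted p = 0.757) and for *ZAT18* 0.52 (adjusted p = 0.739) on the log2 scale, and in both the groups overlapped. *ZAT18* was dim, between 0.0252 and 0.0378 in the 4mer arrays and between 0.018 and 0.026 in the mock arrays, and a floor of 0.25 left it no difference.

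The CAMTA proteins bind calmodulin and activate fast stress genes through a short element in their promoters. The 3 of 6 *CAMTA* genes that are named here were at similar levels in both groups, with log2 fold changes of 0.08 for *CAMTA4*, 0.09 for *CAMTA5* and 0.15 for *CAMTA6*. Their standard errors were 0.11, 0.11 and 0.13, and their adjusted p-values from limma 0.825, 0.794 and 0.704. In each of the 3 genes the arrays of the groups overlapped, and their median was 0.09 with all arrays and 0.15 without mock replicate 1.

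Other genes known for a fast response were higher on the 4mer arrays more often than lower, without passing the test one by one. Of 31 listed genes 7 are named here. All 7 had a positive log2 fold change, with a median of 0.58, and in 5 of them the 4mer arrays lay above all mock arrays, where this held for 7.86% of all probe sets. At an unadjusted p under 0.05, 4 were higher and 0 lower, against 4.54% and 6.86% of all probe sets, and none passed the adjusted threshold. Without mock replicate 1 the median was again 0.58, all 7 had no overlap, against 16.5% of all probe sets, and none passed. The list was made with earlier results of these data known, so its count is no independent evidence of its direction.

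*WRKY6*, a transcription factor gene of senescence and defense, was at 1.20, 1.62 and 1.40 times the array median in the 4mer arrays. In the mock arrays it was at 0.830, 0.973 and 0.796, all below the 4mer arrays, and limma gave a log2 fold change of 0.69 ± 0.15 (SE, adjusted p = 0.163). *PUB23*, whose product is a U-box ubiquitin ligase and a brake on immunity, was at 1.82, 2.2 and 1.92 in the 4mer arrays and at 1.06, 1.40 and 1.26 in the mock arrays. These groups also stood apart, and limma gave a log2 fold change of 0.68 ± 0.13 (SE, adjusted p = 0.136). *WRKY22*, a factor downstream of immune receptors, was at 1.48, 1.46 and 1.16 in the 4mer arrays and at 0.912, 0.920 and 0.898 in the mock arrays. Like *STZ* and AT1G05575, it was very even in mock and more spread with the 4mer.

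*PUB22* and *ORA47* were the 2 of these genes whose groups overlapped, and they are named for that after their values were seen. *PUB22*, a close relative of *PUB23*, was at 1.02, 0.977 and 1.16 in the 4mer arrays and at 1.04, 0.702 and 0.746 in the mock arrays. *ORA47*, a regulator of jasmonate synthesis, was at 0.600, 0.772 and 0.807 in the 4mer arrays and at 0.645, 0.518 and 0.440 in the mock arrays. In both genes mock replicate 1 was the highest of the mock arrays, as in AT2G25735, and no other mock array overlapped the 4mer arrays. In *ORA47* the overlap also rested on 4mer replicate 1, the only 4mer array below mock replicate 1. Without mock replicate 1 the log2 fold change of *PUB22* was 0.54 (adjusted p = 0.0928 from limma) and that of *ORA47* 0.59 (adjusted p = 0.169).

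**Figure D3:**
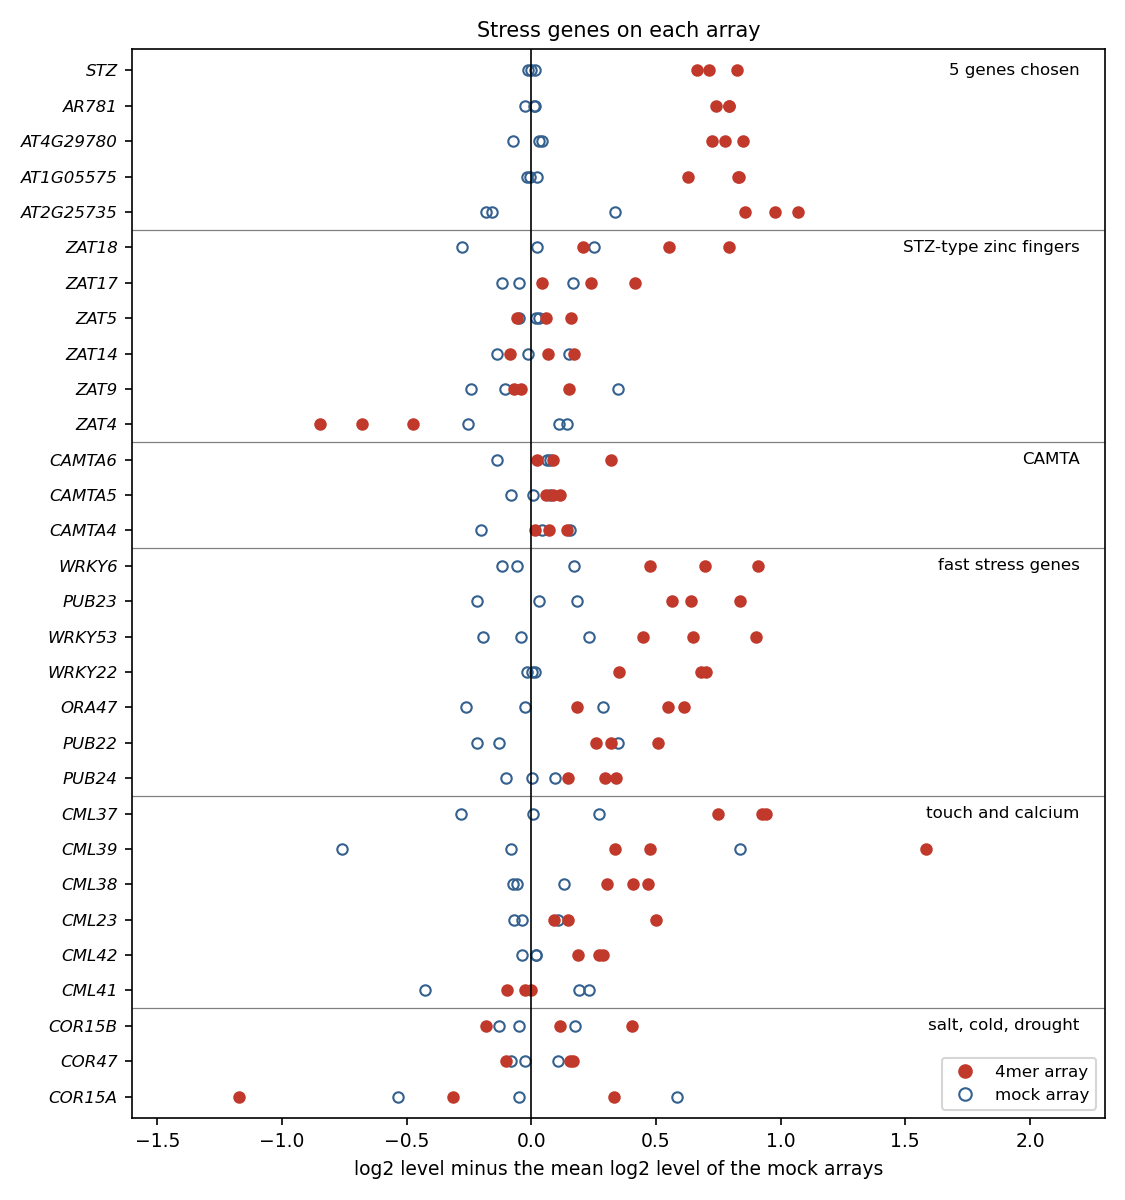
Log2 level of each array minus the mean log2 level of the mock arrays, with 1 gene per row, filled points for 4mer arrays and open points for mock arrays. Members of each list are ordered by their log2 fold change, from 0.69 for *WRKY6* to 0.26 for *PUB24* in the fast stress genes and from 0.52 for *ZAT18* to -0.67 for *ZAT4* in the STZ-type zinc fingers.

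Touch and calcium sensor genes, which respond to handling of the plant and to calcium signals, held 6 named of 9 listed genes. Of these 5 had a positive and 1 a negative log2 fold change, with a median of 0.32, of 0.38 without mock replicate 1 and of 0.12 with levels under 0.25 set to 0.25. In 3 of them the 4mer arrays lay above all mock arrays, against 7.86% of all probe sets, and without mock replicate 1 in 4, against 16.5%. At an unadjusted p under 0.05, 3 were higher and 0 lower, against 4.54% and 6.86% of all probe sets, and none passed the adjusted threshold with all arrays. This list too was made with earlier results of these data known, so its counts are no independent evidence of its direction. *CML38*, a calmodulin-like calcium sensor gene, was at 2.39, 2.57 and 2.68 times the array median in the 4mer arrays and at 2.12, 1.84 and 1.86 in the mock arrays. It did not pass with all arrays, at a log2 fold change of 0.39 (adjusted p = 0.203 from limma). Without mock replicate 1 it was the 1 listed stress gene that passed the adjusted threshold, at 0.46 (adjusted p = 0.0375), where 0.8% of all probe sets were higher. *CML42* was at 4.69, 5.03 and 4.97 in the 4mer arrays and at 4.01, 4.17 and 4.17 in the mock arrays, a log2 fold change of 0.25 (adjusted p = 0.286). *CML37* was dim, with 0.182 to 0.208 in the 4mer arrays and 0.0893 to 0.131 in the mock arrays (log2 fold change 0.87, adjusted p = 0.373). A floor of 0.25 left it no difference, and a pseudocount of 0.25 gave 0.32.

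Genes of the slower salt, cold and drought response, to which *STZ* is also tied in its known biology, did not differ beyond the spread of the arrays. Only 3 of 13 listed genes carry a name here, and all 3 encode proteins that protect cells against cold or drying. *COR47* was at 24.6, 20.4 and 24.4 times the array median in the 4mer arrays and at 23.6, 21.5 and 20.7 in the mock arrays. *COR15B* was between 0.913 and 1.37 in the 4mer arrays and between 0.947 and 1.17 in the mock arrays. *COR15A* was dim and scattered, between 0.0959 and 0.272 in the 4mer arrays and between 0.149 and 0.324 in the mock arrays. On the log2 scale they differed by 0.07, 0.11 and -0.39, and limma's adjusted p was 0.830, 0.839 and 0.788. Their median was 0.07, and 0.13 without mock replicate 1. None of the 17 listed ERF and DREB factors, the 10 co-repressors and kinases that act with EAR repressors, and the 12 enzymes that remove reactive oxygen is named among the probe sets, so these were not analysed here.

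Over all stress lists together, 25 of 115 listed genes were measured, the 5 chosen genes not counted. Of these 22 had a positive and 3 a negative log2 fold change, 7 were higher and 1 lower at an unadjusted p under 0.05, against 4.54% and 6.86% of all probe sets, and 0 passed the adjusted threshold of limma in either direction. The 7 higher genes were all from the fast-response list and the touch and calcium list. Over the 25 genes the median log2 fold change was 0.25 with all arrays and 0.23 without mock replicate 1. Over all probe sets it was -0.01 and 0.0. The lists were made with earlier results of these data known, so these counts are no independent evidence of a direction. Among the tissue markers the groups stood apart in 1 gene with all arrays and in 3 without mock replicate 1. Of all probe sets, 7.86% stood apart with the 4mer higher and 12.5% with the 4mer lower, with all arrays. Without mock replicate 1, 16.5% stood apart with the 4mer higher. The share lower in that setting is not given here, so the 2 root markers that were then lower have no share beside them and are not read as a result. *EXPA18*, an expansin gene of root hairs, was at 1.34, 1.24 and 1.51 in the 4mer arrays and at 1.71, 1.99 and 1.82 in the mock arrays. Its log2 fold change was -0.44 (adjusted p = 0.234 from limma), and -0.49 without mock replicate 1 (adjusted p = 0.0755). *EXPA7*, also of root hairs, was at 1.24, 1.40 and 1.24 in the 4mer arrays and at 0.682, 1.48 and 1.47 in the mock arrays. Without mock replicate 1 its 4mer arrays lay below both mock arrays, with a log2 fold change of -0.19 (adjusted p = 0.378), against 0.18 with all arrays (adjusted p = 0.838). *RCA* then lay above both, at 0.14 (adjusted p = 0.343), against -0.03 with all arrays (adjusted p = 0.966). The part of root hair or green cells in the other results was not tested. In RNA of whole seedlings, fewer cells of a type and less RNA per cell cannot be told apart.

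By their pattern over the 6 arrays, the genes most like the 5 were AT1G33600, *GSTU25*, *HEMA2*, AT3G49790 and AT4G23870. The measure was Pearson's r between a gene's log2 levels and the mean standardised profile of the 5, taken over 5981 other probe sets that name 1 gene and have a mean level of at least 1. It was 0.985 for AT1G33600, 0.985 for *GSTU25*, 0.983 for *HEMA2*, 0.981 for AT3G49790 and 0.978 for AT4G23870. These values hold the group difference and rest on 6 arrays, so they only describe.

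*GSTU25* encodes a glutathione transferase, an enzyme that couples toxic compounds to glutathione. Its level was 3.18, 2.94 and 2.77 times the array median in the 4mer arrays and 2.01, 1.93 and 1.97 in the mock arrays. *HEMA2* encodes a glutamyl-tRNA reductase, which feeds the synthesis of heme and other tetrapyrroles. It was at 2.19, 2.19 and 2.17 in the 4mer arrays and at 1.85, 1.77 and 1.70 in the mock arrays, a smaller difference in log2 terms, 0.30. In all 5 of these like genes the 4mer arrays lay above all mock arrays, which the measure itself favours.

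When the group means were taken out, other genes came closest to the mean profile of the 5, which itself averages deviations that differed from gene to gene. The highest r over 6 arrays, out of the same 5981 probe sets, was found for AT2G15270, AT3G56820, AT3G12010, AT2G35790 and AT4G13220, at 0.999, 0.997, 0.985, 0.981 and 0.973. Their log2 fold changes lay between -0.18 and -0.05. Of the 5 genes most like by all arrays, 0 were among them, so the 2 measures did not pick the same genes.

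**Figure D4:**
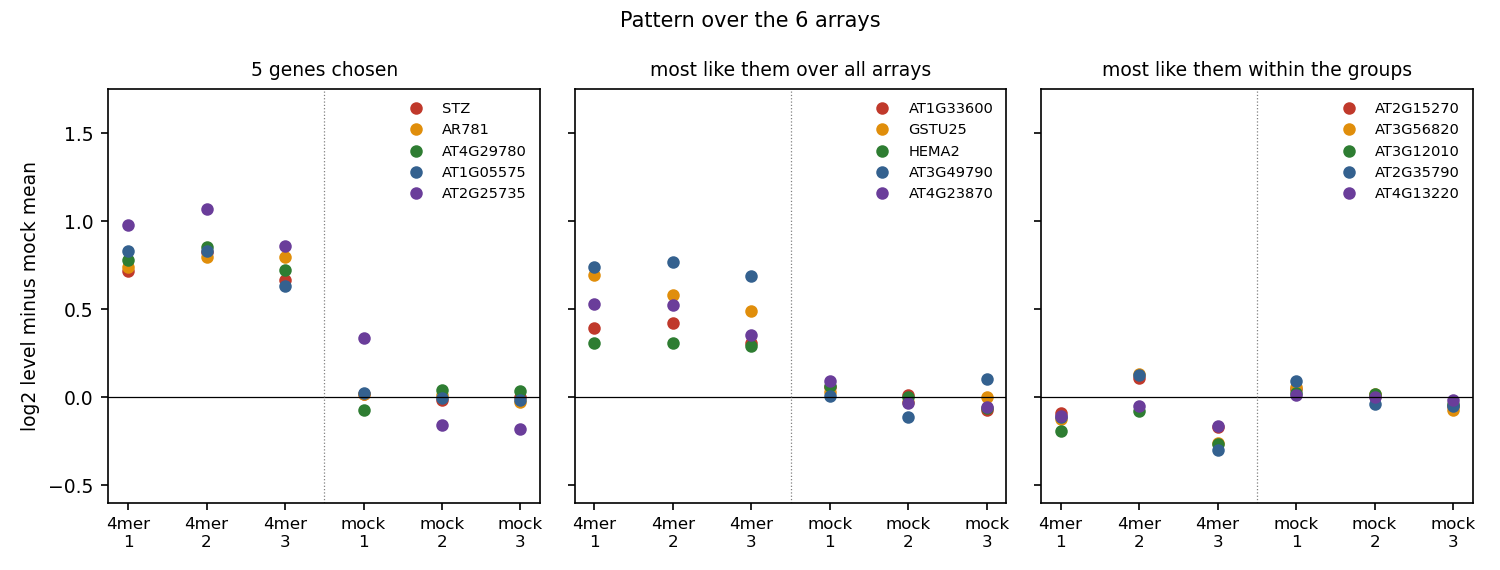
Log2 level minus the mean log2 level of the mock arrays on each array, for the 5 chosen genes at the left, the 5 most like them over all arrays in the middle and the 5 most like them once group means are removed at the right. The left and middle panels share the step between the groups, and in the right panel the fold changes lie between -0.18 and -0.05 on the log2 scale.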

How the data were processed

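RNA from 3 4mer and 3 mock samples was read on Affymetrix ATH1 arrays. The deposited values are intensity on a linear scale, which the authors computed per probe set with MicroArray Suite 5.0. Scaling target, detection calls and filters are not given in the sources used here. As in the methods, the signal was floored at 0.01 and scaled to the array's 50th percentile, and log2 was taken. The groups were compared with limma 3.58.1 in R 4.3.3 (eBayes with a variance trend, Benjamini-Hochberg over 22746 probe sets, threshold 0.05), since the methods name SAM without a threshold. Of all probe sets, 13513 pair with 1 gene, 503 with several and 8730 are not named here; 13436 matched the TAIR10.1 gene table. The brightest probe set stood for a gene. Genes named are the 5 chosen, up to 3 per list by the smallest p, those most like in pattern, and neighbours. The genes and lists were chosen with earlier results of these data known. Alternatives were another scaling, floor, pseudocount, filter, no trend, a replicate block, the ratio of the methods and leaving out arrays. Sequences, and with them protein relatives and promoter motifs, were not analysed here. The number of arrays limits the precision.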

Additional observations from a re-analysis of the deposited data

How the results depend on the processing

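The log2 fold changes of the 5 genes were positive under all 12 alternatives. Of these, the replicate block, with equal groups, and the floor of 0.25, below every level of the 5 genes, could not change the fold changes. They stayed within 0.69 to 0.77 for *STZ*, 0.71 to 0.81 for *AR781*, 0.73 to 0.82 for AT4G29780, 0.70 to 0.83 for AT1G05575 and 0.88 to 1.13 for AT2G25735. Beyond the spread of its arrays only *AR781* moved, to 0.81 without scaling between the arrays and to 0.71 with a pseudocount of 0.25. The genes were chosen for their difference on these arrays, so this stability is no evidence. The counts over all probe sets at the adjusted threshold, a measure not comparable with a fold change, varied widely. With all arrays 15 were higher and 8 lower, against 182 and 156 without mock replicate 1. Over all arrays left out in turn the counts ran from 0 to 182 higher and from 0 to 156 lower. A floor of 0.25 left 5 higher and 5 lower, the filter on a mean level of at least 1 gave 34 and 20 over fewer probe sets, and no variance trend gave 0 and 2. The cause was not tested. With the replicate number as a block 0 were higher and 0 lower, and the fold changes of the 5 genes were the same by construction. The deviations of same-numbered arrays correlated at -0.04, -0.01 and -0.04, and no array correlated best with its own number. These values show no pattern shared by same-numbered arrays. With so few arrays per group, and mock replicate 1 deviating from the rest, they cannot decide whether the samples were paired. Of the listed stress genes 0 were called higher with all arrays and 0 to 1 with 1 array left out, the 1 being *CML38* without mock replicate 1; none was called lower. Of the 5 genes most like in pattern, 0 remained among the 5 most like once group means were removed and 0 without mock replicate 1. The median of the touch and calcium genes was 0.12 with a floor of 0.25. Protein relatives and promoter motifs were not run, as sequences were not used here. No detection calls were used here, so it is not known which low levels exceed the background.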

Other observations

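Genes that lie next to the 5 on the chromosome were looked at as well. This set, the nearest 2 protein-coding genes on each side in the TAIR10.1 gene order, was chosen after the data were seen. Of these 20 genes 6 carry a name on the array, of which 2 had a positive and 4 a negative log2 fold change, and none passed limma's test. At an unadjusted p under 0.05, 1 of the 6 was higher, where this held for 4.54% of all probe sets. The median of the 6 was -0.07. Without mock replicate 1, 5 were positive and 1 negative, with a median of 0.18, and none passed. The gene beside *AR781*, AT2G26520, was at 0.792, 0.515 and 0.501 times the array median in the 4mer arrays, against 0.291, 0.172 and 0.406 in the mock arrays. All 4mer arrays were above the mock arrays at this dim level, as in 7.86% of all probe sets. For this gene limma gave a log2 fold change of 1.11 ± 0.35 (SE, adjusted p = 0.311). AT2G25730, beside AT2G25735, was at 4.34, 4.02 and 3.93 in the 4mer arrays and at 3.64, 2.78 and 3.92 in the mock arrays, a log2 fold change of 0.26 (adjusted p = 0.490 from limma). Its 4mer arrays too lay above all mock arrays, though barely, so this held in 2 of the 6 genes. AT2G25740, on the other side of AT2G25735, was at 2.37, 2.11 and 2.31 in the 4mer arrays and at 2.34, 2.42 and 2.29 in the mock arrays, so that the groups overlapped.

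Without mock replicate 1, the genes most like the 5 in pattern were different ones, AT1G35430, *MAK10*, AT5G22690, AT3G57450 and AT1G67910, and they are named after their values were seen. *MAK10* was at 3.51, 3.92 and 3.45 times the array median in the 4mer arrays and at 3.09, 1.80 and 1.85 in the mock arrays. Its mock replicate 1 was higher than the other mock arrays, as in AT2G25735. The log2 fold change of *MAK10* was 0.73 with all arrays (adjusted p = 0.249 from limma) and 0.99 without that array (adjusted p = 0.00304). These p-values are no evidence, since the gene was picked on these arrays for a pattern that holds the group difference. AT1G67910 was at 5.54, 5.57 and 5.52 in the 4mer arrays and at 6.13, 4.41 and 4.45 in the mock arrays, so that mock replicate 1 lay above all 4mer arrays. In the 5 chosen genes no mock array did so, which their choice as higher with the 4mer favours.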
